A study of Mus musculus with 21 samples.

Results

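The 6 libraries described here come from inguinal lymph nodes of wild-type (WT) mice. Of these, 3 are from untreated mice (NoTx 1, 2 and 3) and 3 from mice exposed to UVB (UVTx 7, 8 and 9), and they were chosen by genotype and treatment among 12 lymph node libraries and 21 libraries in all. The study set WT mice beside mice with an *Ifnk* transgene (TG), which makes interferon kappa from the keratin-14 promoter of basal keratinocytes, in skin and in the nodes that drain it. The WT mice are BALB/c, from Jackson stock bred at the University of Michigan, and neither group compared here carries the transgene. UVB came from lamps that emit at 310 nm, at 250 mJ/cm2 a session. A course took 2 weeks with 3 sessions in each, on shaved mice with the face covered, and the nodes were taken after a further 2 weeks without UVB. The NoTx mice received no UVB, and the sources used here do not say outright whether they too were shaved and restrained. The paper calls mice of 3 months young and those of 12 months aged, and the labels give no age, sex or mouse number for a lymph node library. The nodes were pressed through a cell strainer and lysed, and polyadenylated RNA was sequenced. Every sample has a number of its own, but the labels do not say outright that each is a separate animal, so the p-values below measure the spread between these samples.

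A lymph node is where lymphocytes meet antigen carried in from a tissue. Naive T and B cells enter from the blood across high endothelial venules, are held in T cell zones and follicles by chemokines that fibroblastic reticular cells and follicular dendritic cells make, and leave along a gradient of sphingosine-1-phosphate. When antigen arrives, B cells that receive help from T follicular helper cells form germinal centres, where they divide fast and switch their immunoglobulin class. UVB is absorbed in the skin, yet it is known to suppress immune responses throughout the animal, and cells that migrate from irradiated skin to its draining nodes take part in that suppression.

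The WT libraries held 32672854, 31643738 and 34108856 counts in NoTx 1, 2 and 3 and 31944330, 27599809 and 32705963 in UVTx 7, 8 and 9. Levels below are given as CPM, a gene's counts relative to its library's total on edgeR's TMM scale. A gene with no count in a library may still make up as much as 1.09e-05% of it in UVTx 8, the shallowest, which is the share of 3 counts. Genes with at least 1 count numbered 20661 to 21621 over the WT libraries. T lymphocyte genes were abundant in every WT library: *Cd3g*, a chain of the T cell receptor complex, ranged from 288 to 401 CPM. The keratin genes *Krt5* and *Krt15* of basal epidermis had no count in any WT library. All 6 libraries carried the Y-linked gene *Ddx3y* (91.1 to 178 CPM) and little of the female-specific RNA *Xist* (at most 0.390 CPM). Log2 CPM values correlated across genes at 0.985 to 0.989 among the NoTx libraries, at 0.986 to 0.988 among the UVTx libraries and at 0.971 to 0.982 between the groups. In a principal component analysis of the WT libraries alone, the leading component held 46.0% of the variance and separated the groups, with NoTx at -26.5, -31.9 and -42.0 and UVTx at 25.5, 46.9 and 27.9. UVTx 8 and NoTx 3 lay farthest out on it.

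Many genes differed between the UVTx and NoTx nodes, most of them modestly. Of the listed genes, 8 of 12 heat shock genes, 6 of 34 mitosis genes and 3 of 9 genes of T follicular helper cells rose, while 4 of 7 erythroid genes, 3 of 11 endothelial genes, 2 of 12 stromal genes and 2 of 11 genes of naive T cells fell, as did the survival cytokine gene *Il7*. Of 16173 genes tested, 805 (4.98%) differed between UVTx and NoTx with an adjusted p under 0.05 in edgeR's quasi-likelihood test. Of these, 472 (2.92% of the genes tested) were higher in UVTx and 333 (2.06%) were lower, and 434 and 322 of them encode proteins. The median log2 fold change was 0.66 for the genes that rose and -0.53 for those that fell, against -0.005 over all genes tested, and a change of at least 2-fold was fitted for 117 and 69 of them. The values of the UVTx libraries did not overlap those of the NoTx libraries for any of the 805 genes. Among all genes tested, 4256 (26.3%) had an unadjusted p under 0.05, and 3201 (19.8%) lay wholly higher and 2799 (17.3%) wholly lower in UVTx.

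**Figure D1:**
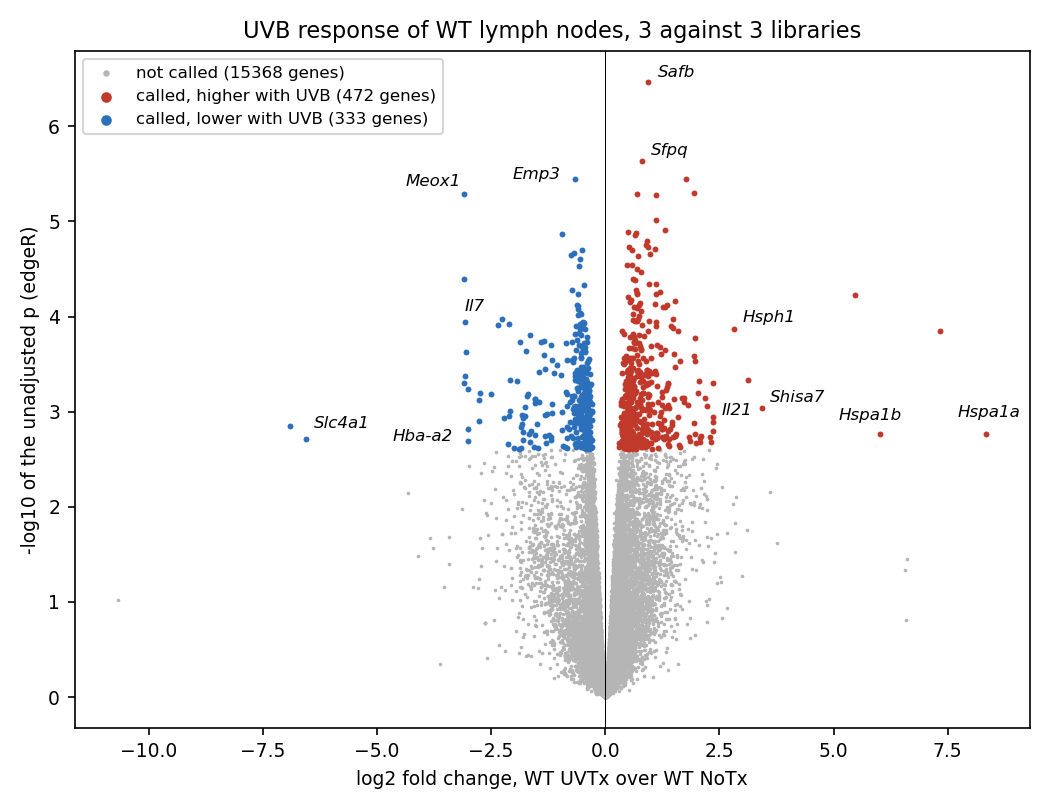
Each point is a tested gene, by its log2 fold change of WT UVTx over WT NoTx and the -log10 of its unadjusted p in edgeR (3 libraries a group). The 472 red genes and 333 blue genes passed at an adjusted p under 0.05, with *Safb* uppermost and *Hspa1a* farthest to the right.

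How many genes pass depends on single libraries. Without NoTx 1, 277 genes passed in edgeR, without NoTx 2 190, without NoTx 3 7, without UVTx 7 493 and without UVTx 9 29. Without UVTx 8 no gene passed in edgeR, where 2683 genes had an unadjusted p under 0.05 and the smallest adjusted p was 0.0518. DESeq2 called 2002 genes with all libraries (1118 higher, 884 lower) and 580 without UVTx 8, its lowest count. Fitted on the WT libraries alone, edgeR called 2431 genes, and 870 without UVTx 8. In each edgeR fit on 11 libraries that left out a WT library, all 805 genes had an unadjusted p under 0.05. These genes were picked for a small p in a fit that shares those 11 libraries, so this is no independent check. The genes that passed without NoTx 3 were *Arf5*, *Ccl5*, *Emp3*, *Meox1*, *Nfatc4*, *Pde7a* and *Safb*, of which *Arf5* and *Ccl5* did not pass with all libraries, and *Arf5* and *Nfatc4* are named here after their values were seen. Against a fold change of 1.5 rather than none, edgeR's glmTreat called 0 genes, with 814 at an unadjusted p under 0.05 and a smallest adjusted p of 0.157.

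**Figure D2:**
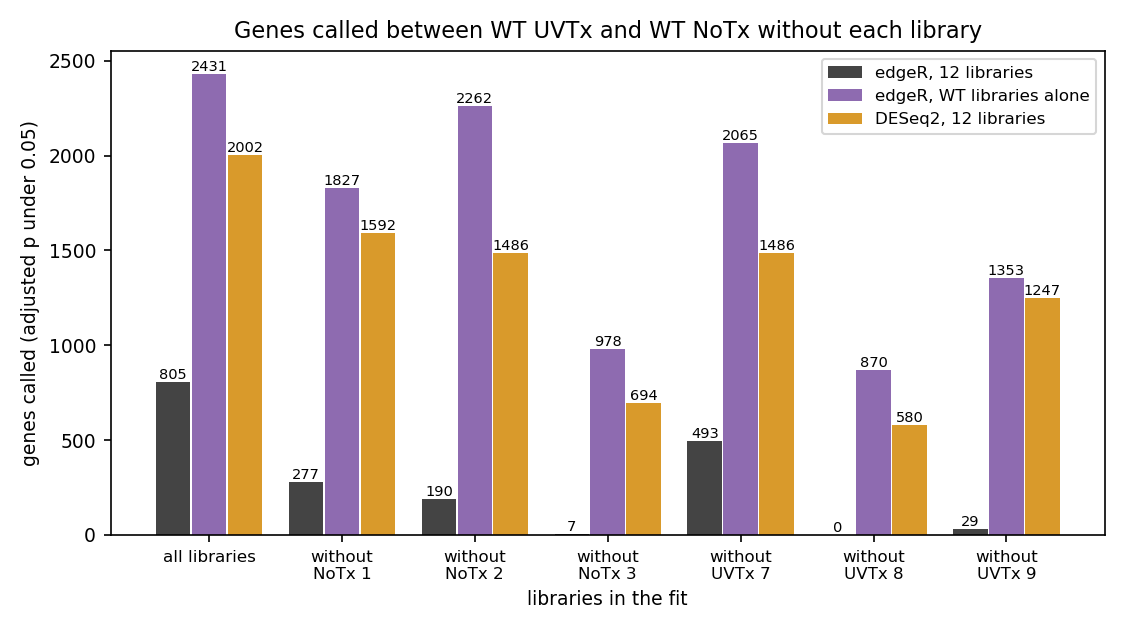
Bars give the number of genes called between WT UVTx and WT NoTx (adjusted p under 0.05) with all libraries and without each WT library, for edgeR on 12 libraries, edgeR on the WT libraries alone and DESeq2 on 12 libraries. The edgeR count on 12 libraries ranged from 805 with every library down to 0 without UVTx 8, and the other fits gave at least 580 in each case.

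The largest increases among the named genes were those of *Hspa1a* and *Hspa1b*. They are heat shock genes, whose products refold or dispose of damaged proteins and which heat shock factor switches on together. Of the 12 genes on the list, 8 rose (against 2.92% of all genes tested), 10 were wholly higher in UVTx (against 19.8%), and the median log2 fold change was 1.29. The most inducible member, *Hspa1a* (ENSMUSG00000091971, chromosome 17, 34969190 to 34972156), encodes the stress form of the chaperone HSP70. It stood at 0.0905, 0 and 0.0307 CPM in the NoTx libraries, 4 reads in all, and at 1.62, 40.8 and 1.35 CPM in UVTx 7, 8 and 9, or 1221 reads. UVTx 8 was far above the rest, and UVTx 7 and 9 were still above every NoTx library. Its fitted log2 fold change was 8.35 ± 1.91 (adjusted p = 0.0442), where the error given after each log2 fold change is its standard error. Its near copy *Hspa1b* (ENSMUSG00000090877, chromosome 17, 34956436 to 34959238) went from 0.815, 0.878 and 0.399 CPM to 6.97, 123 and 6.53 CPM (log2 6.02 ± 1.36, adjusted p = 0.0442). The coding sequences of the pair are almost the same, so the split of reads between them is uncertain. *Hsph1* (ENSMUSG00000029657, chromosome 5, 149614287 to 149636376), which encodes the HSP110 co-chaperone, stood at 78.8, 75.7 and 58.6 CPM in NoTx and at 228, 905 and 373 CPM in UVTx. Its UVTx values all lie far above the highest NoTx value, and the fit gave 7.07-fold (log2 2.82 ± 0.46, adjusted p = 0.0234).

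The HSP40 co-chaperone gene *Dnaja1* (ENSMUSG00000028410, chromosome 4, 40722150 to 40737149) rose from 264, 299 and 219.9 CPM to 539, 1250.5 and 650.1 CPM (log2 1.64 ± 0.31, adjusted p = 0.028). The constitutive HSP70 gene *Hspa8* went from 949, 1016 and 725 CPM to 1381, 2644 and 1977 CPM (log2 1.16 ± 0.27, adjusted p = 0.041). The mitochondrial chaperonin gene *Hspd1* (log2 0.86) and the HSP90 genes *Hsp90ab1* (log2 0.81) and *Hsp90aa1* (log2 1.43) were the other members that rose. In each of these 8 genes UVTx 8 was the highest library, and its labels differ from those of UVTx 7 and 9 in the number alone. *Dnajb1* had 77.6, 77.6 and 65.6 CPM in NoTx and 134, 357 and 150.5 CPM in UVTx and missed the threshold (adjusted p = 0.0626), and *Bag3* was high in UVTx 8 alone at 33.3 CPM, with 10.1 to 13.3 CPM in the other libraries. The list's summed level was 3521, 3686 and 3071 CPM in NoTx and 5039, 11223 and 6674 CPM in UVTx, with *Hsp90ab1* its most abundant gene. All 8 calls held in edgeR without UVTx 7 and none held without any other WT library, although each kept an unadjusted p under 0.05 and DESeq2 kept 6 to 8 of them. On the WT libraries alone edgeR called 4 of the list, and with no filter on low counts 2. Without UVTx 8 the log2 fold change was 5.06 for *Hspa1a*, 3.27 for *Hspa1b*, 2.08 for *Hsph1*, 0.53 for *Hspd1*, 0.83 for *Hsp90aa1* and 0.51 for *Hsp90ab1*, and the list's median was 0.87.

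**Figure D3:**
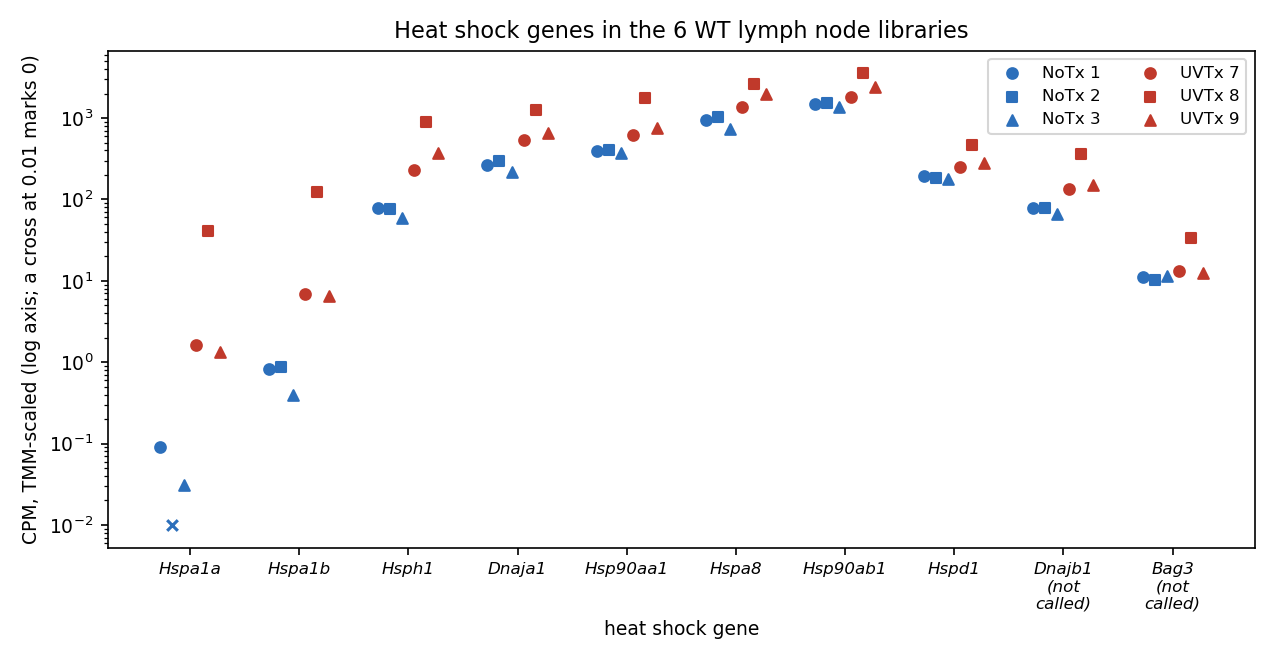
Each point is a WT library's level of a heat shock gene in CPM on a log axis, NoTx in blue and UVTx in red. UVTx 8 (red squares) is highest for all 10 genes, and UVTx 7 and 9 lie above all NoTx libraries for every gene drawn.

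Heat shock factor binds repeats of the letters GAA and their complement TTC, so promoters are shown for the 4 called heat shock genes whose window holds GAA and TTC with 2 letters between. The search covered RefSeq windows from 250 bases before to 50 after the start of a gene (build GRCm38.p6), read on both strands, and this motif was added after the expression values were seen. The letters GAANNTTC occur in the windows of 7 of the 9 heat shock genes that have a window (77.8%), against 7.95% of all 27025 promoters. *Dnajb1* and *Hspd1* lack them in this window, and *Hsp90aa1*, *Hsp90ab1* and *Hspa8* have no window. The 4 windows printed here each hold 1 match, in capitals. They are chr17:34972107-34972406 for *Hspa1a*, chr17:34959189-34959488 for *Hspa1b* and chr5:149636287-149636586 for *Hsph1*, all on the minus strand, and chr4:40722218-40722517 on the plus strand for *Dnaja1*.
Hspa1a: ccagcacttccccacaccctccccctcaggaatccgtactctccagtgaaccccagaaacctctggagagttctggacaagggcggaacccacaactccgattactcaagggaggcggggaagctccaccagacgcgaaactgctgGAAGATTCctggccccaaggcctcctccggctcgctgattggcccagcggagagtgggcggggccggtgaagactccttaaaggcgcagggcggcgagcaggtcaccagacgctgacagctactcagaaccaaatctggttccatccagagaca
Hspa1b: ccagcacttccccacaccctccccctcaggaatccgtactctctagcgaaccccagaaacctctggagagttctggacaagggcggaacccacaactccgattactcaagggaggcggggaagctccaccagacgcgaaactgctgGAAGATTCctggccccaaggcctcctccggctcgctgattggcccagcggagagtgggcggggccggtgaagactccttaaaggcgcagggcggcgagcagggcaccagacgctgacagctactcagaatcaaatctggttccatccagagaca
Hsph1: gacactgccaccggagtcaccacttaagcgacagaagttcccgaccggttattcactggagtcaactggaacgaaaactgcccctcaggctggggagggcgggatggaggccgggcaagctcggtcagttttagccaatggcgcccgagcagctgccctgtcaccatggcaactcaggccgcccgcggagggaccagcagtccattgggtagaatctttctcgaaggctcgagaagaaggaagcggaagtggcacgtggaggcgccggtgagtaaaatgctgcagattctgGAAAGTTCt
Dnaja1: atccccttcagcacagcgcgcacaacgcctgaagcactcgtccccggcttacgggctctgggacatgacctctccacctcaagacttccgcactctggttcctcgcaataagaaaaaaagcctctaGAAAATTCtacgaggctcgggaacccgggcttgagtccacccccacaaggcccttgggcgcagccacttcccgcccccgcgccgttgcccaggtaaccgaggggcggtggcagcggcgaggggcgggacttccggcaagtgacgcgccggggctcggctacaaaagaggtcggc
The *Hspa1a* and *Hspa1b* windows are nearly the same over their whole length and share the matched letters and their place. In *Hsph1* the match lies near the far end of the window, past the start of the gene. The *Dnaja1* window follows the RefSeq start and lies wholly within the gene as positioned above. Its match is therefore past the start given there. The CCAAT box, spelled CCAAT, was found in 5 of the 9 windows (55.6%, against 37.9% of all promoters), the E-box CACGTG in 2 (22.2% against 7.24%), and neither the cell cycle element TTTGAA or TTTAAA (27.8% of all promoters) nor the E2F letters TTTCCCGC or TTTGGCGC (1.63%) in any. A match is a description of letters and says nothing about what is bound there.

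*Safb* (ENSMUSG00000071054, chromosome 17, 56584825 to 56606294), which encodes a scaffold attachment factor that binds chromatin and RNA, had the smallest adjusted p of all genes. It measured 117, 88.4 and 97.4 CPM in NoTx and 184, 202 and 192 CPM in UVTx, a 1.91-fold rise (log2 0.93 ± 0.10, adjusted p = 0.00548). *Sfpq* (ENSMUSG00000028820, chromosome 4, 127021324 to 127037013), a splicing factor of nuclear paraspeckles, rose from 297, 271 and 227 CPM to 431, 496 and 462 CPM (log2 0.81 ± 0.10, adjusted p = 0.0106). *Pde7a* (ENSMUSG00000069094, chromosome 3, 19223108 to 19311322), a cyclic AMP phosphodiesterase of T cells, stood at 137, 122 and 146 CPM and then 201, 222 and 231 CPM (log2 0.69 ± 0.10). *Nt5e* (ENSMUSG00000032420, chromosome 9, 88327197 to 88372092), which encodes CD73, the surface enzyme that makes the suppressive mediator adenosine from AMP, rose 2.15-fold from 14, 13.5 and 10.9 CPM to 28.2, 29.4 and 25 CPM (log2 1.10 ± 0.15, adjusted p = 0.0106). The UVTx values of *Nt5e* lie close together and all above the NoTx values.

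On the other side, *Emp3*, a membrane protein gene of leukocytes, fell from 84.3, 79.7 and 101 CPM to 55.2, 53.7 and 57.2 CPM (log2 -0.67 ± 0.09, adjusted p = 0.0106), and *Trdmt1*, a transfer RNA methyltransferase gene, from 15.1, 17.2 and 18.9 CPM to 10.00, 7.67 and 8.83 CPM (log2 -0.95 ± 0.14). The metalloproteinase gene *Adam9* had 18.1, 18.1 and 17.9 CPM in NoTx and 29.7, 28.5 and 27.4 CPM in UVTx (log2 0.66 ± 0.10). The chromatin remodelling gene *Baz1a* (log2 0.49) and the matrix protein gene *Adamtsl4* (log2 1.31) rose with adjusted p of 0.015 and 0.015. With *Meox1*, taken up with the stroma, these are the 10 genes of smallest p that the naming rule takes, and *Jun*, taken up below, has the same adjusted p as the last 4. All 10 passed in edgeR without NoTx 1, NoTx 2 or UVTx 7, 9 without UVTx 9, 4 without NoTx 3 and none without UVTx 8, where their adjusted p ran from 0.0518 to 0.0757 and DESeq2 called all 10.

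Cell division genes stood higher as a group. The 34 mitosis genes, which build the spindle and part the chromosomes, all had a positive log2 fold change, with a median of 1.03, and 33 of them were wholly higher in UVTx, against 19.8% of all genes tested. Of the 34, 6 passed the test (against 2.92% higher among all genes tested): *Prc1*, *Cdca8*, *Cenpe*, *Hmmr*, *Birc5* and *Incenp*. *Prc1* (ENSMUSG00000038943, chromosome 7, 80294450 to 80316259), which bundles the midzone of the spindle, had 7.85, 7.87 and 4.91 CPM in NoTx and 17.4, 14.3 and 13.1 CPM in UVTx (2.17-fold, log2 1.12 ± 0.21, adjusted p = 0.0234). *Cdca8*, a subunit of the chromosomal passenger complex, went from 5.01, 4.11 and 3.47 CPM to 13.6, 10.1 and 7.66 CPM (log2 1.32 ± 0.27, adjusted p = 0.0266), and *Cenpe*, a kinetochore motor, from 8.24, 7.09 and 4.48 CPM to 21, 15.7 and 12.6 CPM (log2 1.32 ± 0.30, adjusted p = 0.0365). NoTx 3 was the lowest library for each of these, and UVTx 7 the highest. The proliferation marker *Mki67*, singled out after its values were seen, read 48.4, 37.9 and 24.1 CPM in NoTx and 118, 97.3 and 62 CPM in UVTx but missed the threshold (log2 1.33 ± 0.40, adjusted p = 0.081). Summed over the list, the libraries held 344, 337 and 247 CPM in NoTx and 749, 582 and 467 CPM in UVTx, *Top2a* being the most abundant gene.

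The 38 genes of DNA replication and S phase moved less, with a median log2 fold change of 0.27 and 3 calls (7.9% of the list, against 2.92% of all genes tested), all upward. They were *E2f8*, a repressor that acts late in S phase (2.78, 2.07 and 2.58 CPM in NoTx, 9.37, 6.51 and 5.55 CPM in UVTx, log2 1.53 ± 0.32, adjusted p = 0.0303), *Tyms*, the thymidylate synthase gene (log2 0.95), and *Brca1* of DNA repair (log2 0.60). The most abundant member, *Pcna*, read 156 to 188 CPM in every library of both groups. Of the 6 mitosis calls, edgeR kept 3 without NoTx 1, 1 without NoTx 2, 1 without UVTx 7 and none without NoTx 3, UVTx 8 or UVTx 9, while DESeq2 kept 4 to 6 in each case and called 30 of the 34 genes with all libraries. The S phase calls held in edgeR only for 1 gene without NoTx 2, and DESeq2 kept all 3 throughout. Of 25 MYC targets and ribosome biogenesis genes, edgeR called only *Ppan* higher (log2 0.45, adjusted p = 0.0449), against 2.92% of all genes tested. Its call was lost in edgeR whichever WT library was left out, and DESeq2 kept it without NoTx 1, UVTx 7 or UVTx 9. DESeq2 called 3 of the list with all libraries, as did edgeR on the WT libraries alone. The list's median was -0.05, or -0.10 without NoTx 1.

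Of 12 germinal centre B cell genes, 11 had a positive log2 fold change, 8 were wholly higher in UVTx (against 19.8% of all genes tested) and 1 was wholly lower (against 17.3%). The median log2 fold change was 1.10. *Efnb1* was the only call in edgeR (against 2.92% higher among all genes tested), which called 4 on the WT libraries alone, while DESeq2 called 6. *Efnb1* (ENSMUSG00000031217, chromosome X, 99136130 to 99148991), an ephrin that germinal centre B cells use in contact with helper T cells, had 3.77, 3.14 and 4.24 CPM in NoTx and 10.8, 8.36 and 5.46 CPM in UVTx (log2 1.14 ± 0.25, adjusted p = 0.032). *Mybl1*, a transcription factor of dividing germinal centre cells, read 2.99, 4.77 and 2.06 CPM and 24.9, 11.9 and 9.19 CPM (log2 2.23 ± 0.67, adjusted p = 0.0828). UVTx 7 was the highest library for both of these genes, and NoTx 2 reached nearest to UVTx for *Mybl1*. *Nuggc* (adjusted p = 0.0807) and the follicular retention receptor gene *S1pr2* (adjusted p = 0.0818) were also wholly higher in UVTx without passing. The *Efnb1* call held in edgeR without UVTx 9 and was lost without any other WT library, and DESeq2 kept it each time.

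Among 12 immunoglobulin constant genes none passed in edgeR, 2 had an unadjusted p under 0.05 (against 26.3% of all genes tested), DESeq2 called 2, all higher, and the median was -0.09, or 0.08 without NoTx 2 and -0.20 without NoTx 1. The switched isotype gene *Ighg1* (ENSMUSG00000076614, chromosome 12, 113325240 to 113330523) read 4.89, 11.9 and 2.98 CPM in NoTx and 85.9, 24.9 and 25.7 CPM in UVTx, with every UVTx library above every NoTx library (log2 2.79 ± 0.84, adjusted p = 0.0866). Its log2 fold change ran from 1.94 to 3.53 over the alternatives. *Ighe*, the IgE heavy chain gene, read 0.272, 0.157 and 0.952 CPM and 9.61, 2.0 and 0.398 CPM, where UVTx 9 fell among the NoTx values (adjusted p = 0.115). The unswitched gene *Ighd* had 632, 673 and 823 CPM in NoTx and 618, 531 and 620 CPM in UVTx. Of 15 general B cell genes tested none passed in edgeR or DESeq2 on 12 libraries, 3 had an unadjusted p under 0.05 (against 26.3% of all genes tested), all higher, and the median was 0.007, or -0.10 without UVTx 7 and 0.06 without UVTx 8. On the WT libraries alone edgeR called 3 higher and 1 lower, and DESeq2 4 higher and 2 lower. The 13 plasma cell genes had no call in either tool on 12 libraries, 4 with an unadjusted p under 0.05 (against 26.3%), 3 higher and 1 lower, and a median of 0.007, or -0.12 without UVTx 7 and 0.08 without NoTx 2. On the WT libraries alone edgeR called 1 of them higher, and DESeq2 1 higher and 1 lower.

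T follicular helper cells supply the help that germinal centres need, and of 9 of their genes tested 3 rose (against 2.92% of all genes tested). *Icos* (ENSMUSG00000026009, chromosome 1, 60977927 to 61000320), the co-stimulatory receptor that sustains these cells, had 46.2, 32.9 and 29.4 CPM in NoTx and 74.6, 85.1 and 75.6 CPM in UVTx (2.17-fold, log2 1.12 ± 0.19, adjusted p = 0.0213). *Il21* (ENSMUSG00000027718, chromosome 3, 37222759 to 37232636), the cytokine by which they drive B cells, stood low at 0.453, 0.282 and 0.215 CPM and rose to 2.94, 1.24 and 0.736 CPM (5.13-fold, log2 2.36 ± 0.58, adjusted p = 0.0407). *Maf*, a transcription factor that promotes IL-21, went from 27.3, 20.9 and 21.2 CPM to 36.9, 36.5 and 38.1 CPM (log2 0.68 ± 0.16, adjusted p = 0.0361). For *Icos* and *Maf* the UVTx libraries are close to each other, whereas *Il21* was highest in UVTx 7, and its log2 fold change was 1.62 without that library. The receptor genes *Cxcr5*, *Pdcd1* and *Btla*, also on the list, did not pass, and the list's median was 0.26, or 0.01 without UVTx 7 and 0.07 without NoTx 3. Of the 3 calls edgeR kept 2 without NoTx 1, 1 without UVTx 7 and none without NoTx 2, NoTx 3, UVTx 8 or UVTx 9, and DESeq2 kept 2 or 3.

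Homing genes of naive T cells fell in part. *Ccr7* (ENSMUSG00000037944, chromosome 11, 99144196 to 99155077), the receptor that brings naive T cells and dendritic cells into the T cell zone, fell from 467, 448 and 499 CPM to 348, 329.8 and 369 CPM (log2 -0.43 ± 0.09, adjusted p = 0.0261). *S1pr1* (ENSMUSG00000045092, chromosome 3, 115710433 to 115715072), the receptor lymphocytes follow out of the node, fell from 525, 504 and 649.5 CPM to 414, 389.8 and 422 CPM (log2 -0.45 ± 0.10, adjusted p = 0.0318). The lowest NoTx value is above the highest UVTx value for both. These are 2 of 11 naive and central memory genes (against 2.06% lower among all genes tested), whose median was -0.24. *Il7r*, the receptor for IL-7, lay on the other side at 479, 431 and 564 CPM in NoTx and 617, 951 and 746 CPM in UVTx (adjusted p = 0.0762). Among 16 general T cell genes *Cd2* (log2 -0.35, adjusted p = 0.0343) and *Cd5* (log2 -0.38, adjusted p = 0.0396), both surface proteins that tune T cell contact and signalling, fell (against 2.06% lower among all genes tested), with a list median of -0.19. In a bulk sample fewer cells of a type and less RNA per cell cannot be told apart.

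A few genes of effector and regulatory T cells rose. *Ifng* (ENSMUSG00000055170, chromosome 10, 118441046 to 118445892), the cytokine of type 1 immunity, rose from 0.845, 0.533 and 0.338 CPM to 1.32, 2.0 and 1.59 CPM (2.84-fold, log2 1.51 ± 0.35, adjusted p = 0.0343). *Il2rb*, a shared chain of the IL-2 and IL-15 receptors, rose from 219, 158 and 167 CPM to 247, 331 and 274 CPM (log2 0.65 ± 0.16, adjusted p = 0.0385). They are 2 of 18 effector and cytotoxic genes (against 2.92% higher among all genes tested) with a median of 0.06, or -0.04 without NoTx 3 and 0.13 without NoTx 1. The chemokine gene *Ccl5* lay opposite at 97.9, 122 and 56.5 CPM in NoTx and 50.4, 42.8 and 45.3 CPM in UVTx, just missing the threshold (adjusted p = 0.0505) and passing it without NoTx 3. Of 14 regulatory T cell genes, *Penk* and *Itgae* rose (against 2.92% higher among all genes tested) and the median was 0.18. *Penk* (ENSMUSG00000045573, chromosome 4, 4133531 to 4138819), which encodes the opioid precursor proenkephalin and is known from regulatory T cells of UVB-exposed skin, went from 2.26, 2.32 and 1.23 CPM to 5.38, 6.25 and 5.21 CPM (2.89-fold, log2 1.53 ± 0.27, adjusted p = 0.022), with the UVTx libraries close together. *Itgae*, the CD103 integrin that holds cells to epithelium, went from 60.8, 44.3 and 42 CPM to 98.5, 74.4 and 96.3 CPM (log2 0.87 ± 0.18, adjusted p = 0.0304). The lineage factor *Foxp3* read 64.9, 51.9 and 52.8 CPM in NoTx and 58.8, 65.3 and 64.1 CPM in UVTx, overlapping, and *Ctla4* had 16.7, 15 and 9.86 CPM and 29.2, 26.6 and 23.7 CPM (adjusted p = 0.0678).

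Of these T cell calls, edgeR kept *Ccr7* and *S1pr1* without NoTx 1 or NoTx 2, *Ccr7* without UVTx 7, *Ifng* and *Il2rb* without NoTx 1 or UVTx 7, *Penk* without NoTx 1, NoTx 2 or UVTx 7, and *Itgae* without NoTx 1. The *Cd2* and *Cd5* calls were lost in edgeR whichever WT library was left out, with adjusted p from 0.0520 to 0.154, and none of these calls held without NoTx 3, UVTx 8 or UVTx 9. DESeq2 kept all of them without NoTx 1, NoTx 2, UVTx 7 or UVTx 9, lost *Ifng* and *Il2rb* without UVTx 8, and kept 1 of that pair without NoTx 3. Natural killer genes (6 tested) had no call and none at an unadjusted p under 0.05 in edgeR, and none in DESeq2. Of 8 genes of gamma delta and type 17 T cells edgeR called none, 1 was higher and 1 lower at an unadjusted p under 0.05 (against 26.3% of all genes tested) and DESeq2 called 1 lower. On the WT libraries alone edgeR also called 1 lower.

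Several genes that interferon gamma induces rose, among them GTPases that defend against intracellular pathogens. Of 19 tested, 5 rose (against 2.92% of all genes tested) and the median log2 fold change was 0.38. The chemokine gene *Cxcl10*, named after its values were seen, had the largest change of the list and lay on the other side (log2 -1.49, adjusted p = 0.115), wholly lower without passing. *Irf1* (ENSMUSG00000018899, chromosome 11, 53770014 to 53778374), the transcription factor that relays the signal, went from 219, 239.9 and 186 CPM to 283, 343 and 308 CPM (log2 0.53 ± 0.11, adjusted p = 0.0303). *Irgm2*, an immunity-related GTPase, went from 109, 141 and 102 CPM to 165, 237 and 189 CPM (log2 0.75 ± 0.16, adjusted p = 0.0318), and the guanylate-binding protein gene *Gbp3* from 40.5, 54.7 and 41.8 CPM to 64.7, 71.7 and 65.7 CPM (log2 0.56 ± 0.12, adjusted p = 0.0278). *Gbp2b* (log2 0.63) and the feedback inhibitor gene *Socs1* (log2 0.56) completed the calls. NoTx 2 was the highest NoTx library for most of them, below every UVTx library. The guanylate-binding protein genes form a family of similar copies, so reads may be split among them. Of the 5 calls, 4 held in edgeR without NoTx 2, 4 without UVTx 7 and none without NoTx 1, NoTx 3, UVTx 8 or UVTx 9, and DESeq2 kept all 5 each time.

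None of 34 type I interferon-stimulated genes passed in edgeR, 11 had an unadjusted p under 0.05 (against 26.3% of all genes tested) and DESeq2 called 3, all lower, with a median log2 fold change of -0.97. On the WT libraries alone edgeR called 1 lower. The libraries of a group differ widely: *Ifit1*, an antiviral RNA-binding protein gene, read 17.7, 112 and 91.8 CPM in NoTx and 4.51, 6.91 and 30.3 CPM in UVTx (adjusted p = 0.164). *Isg15*, a ubiquitin-like modifier gene, read 12, 53.1 and 41.9 CPM and 5.47, 5.71 and 18.3 CPM (adjusted p = 0.166), and both were picked after their values were seen. NoTx 2 and NoTx 3 were high, NoTx 1 sat near the UVTx libraries, and UVTx 9 was above UVTx 7 and 8. Without NoTx 1, 2 members passed as lower in edgeR, and the list's median was -0.48 without NoTx 2 and -1.56 without UVTx 9. The members of smallest adjusted p, *Ddx58* (0.0617), an RNA sensor, and *Slfn5* (0.105), also missed the threshold.

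**Figure D4:**
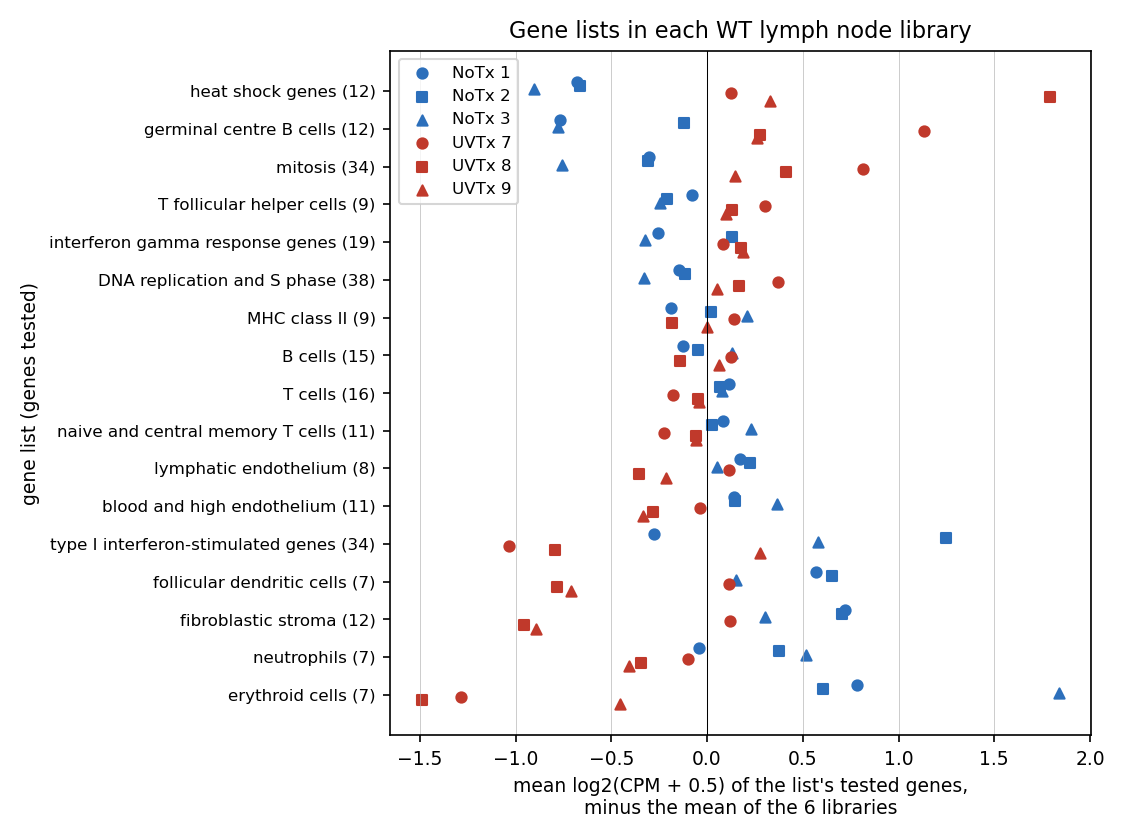
Each point is a WT library's mean log2(CPM + 0.5) over the tested genes of a list, relative to the mean of the 6 libraries, NoTx in blue and UVTx in red. All UVTx libraries lie above all NoTx libraries for the heat shock, germinal centre and mitosis lists and below them for the erythroid list, while NoTx 1 lies among the UVTx libraries for the type I interferon-stimulated genes.

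Genes of the node's framework lay on the lower side. All 12 fibroblastic stroma genes had a negative log2 fold change, with a median of -1.35, or -1.97 without UVTx 7, and 9 were wholly lower in UVTx, against 17.3% of all genes tested. In edgeR only *Acta2* and *Lum* passed (against 2.06% lower among all genes tested). DESeq2 called 4 of the list, edgeR on the WT libraries alone 4, and edgeR without robust estimation 3. *Acta2* (ENSMUSG00000035783, chromosome 19, 34241090 to 34255590), the smooth muscle actin of contractile reticular cells, fell from 3.53, 4.42 and 3.29 CPM to 2.04, 0.945 and 0.858 CPM (2.9-fold lower, log2 -1.54 ± 0.35, adjusted p = 0.0343). *Lum*, the matrix proteoglycan lumican, fell from 1.21, 0.47 and 0.491 CPM to 0.18, 0.218 and 0.0919 CPM (log2 -2.14 ± 0.57, adjusted p = 0.0477), and its log2 fold change was -1.57 without NoTx 1. The collagen gene *Col3a1* read 11.4, 12.2 and 9.7 CPM in NoTx and 5.05, 2.15 and 2.15 CPM in UVTx (adjusted p = 0.0669). In this list UVTx 7 lies nearest to NoTx, and UVTx 8 and UVTx 9 lowest. Summed levels were 99.8, 94.6 and 67.0 CPM in NoTx and 58.7, 21 and 22.1 CPM in UVTx, with *Col1a2* the most abundant member.

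For follicular dendritic cells, which display antigen to B cells, UVTx 7 again lay nearest to NoTx. Their 7 genes all had a negative log2 fold change (median -1.04, or -1.57 without UVTx 7), and 1 was called lower (against 2.06% of all genes tested). This was *Serpina1b*, a protease inhibitor gene of a family of near copies that may share reads, at 10.1, 8.88 and 7.83 CPM in NoTx and 4.32, 2.07 and 1.93 CPM in UVTx (log2 -1.68 ± 0.41, adjusted p = 0.0442). *Cxcl13*, the chemokine that draws B cells into follicles, read 13.2, 13.3 and 15.6 CPM and 7.78, 4.29 and 4.11 CPM without overlap (adjusted p = 0.0919). *Cxcl12* read 14.8, 16.3 and 13 CPM and 9.4, 2.65 and 2.39 CPM (adjusted p = 0.143), and the T cell zone chemokine *Ccl21a*, which has near copies of its own, 57.9, 63.8 and 48.8 CPM and 37.7, 13 and 13.9 CPM (adjusted p = 0.164). The receptor of CXCL12 went the other way: *Cxcr4* had 114, 106 and 70.4 CPM in NoTx and 281, 379 and 198 CPM in UVTx, and it too missed the threshold (adjusted p = 0.121). Over the 10 homeostatic chemokine and receptor genes tested, *Ccr7* and *S1pr1* were the calls in edgeR, both lower (against 2.06% of all genes tested), and the median was -0.44.

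*Il7* (ENSMUSG00000040329, chromosome 3, 7569994 to 7613760), the stromal cytokine that keeps naive T cells alive, was among the clearest decreases. It had 2.63, 3.29 and 2.49 CPM in NoTx and 0.781, 0.473 and 0.49 CPM in UVTx, 4.77-fold lower (log2 -2.25 ± 0.42, adjusted p = 0.0234), and each group is compact. *Meox1* (ENSMUSG00000001493, chromosome 11, 101877510 to 101894374), a homeobox gene of mesenchymal cells, fell further, from 1.96, 3.92 and 1.6 CPM to 0.39, 0.218 and 0.245 CPM (8.59-fold lower, log2 -3.10 ± 0.43, adjusted p = 0.0106). *Cav1* (ENSMUSG00000007655, chromosome 6, 17306335 to 17341452), which forms the caveolae of endothelial, fat and stromal cells, fell from 2.02, 2.16 and 3.1 CPM to 0.541, 0.291 and 0.0306 CPM (log2 -3.06 ± 0.61, adjusted p = 0.0269), or by 3.95 on the log2 scale when UVTx 7 was left out. The zinc finger gene *Tshz2* (log2 -2.12), the glycosyltransferase gene *Galnt15* (log2 -2.49, or -3.19 without UVTx 8) and *Rab34* of membrane traffic (log2 -2.08) fell as well. The *Il7* call held in edgeR without NoTx 1 or UVTx 7 only, and *Meox1* was lost without UVTx 8 alone (adjusted p = 0.0655).

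Blood vessel genes fell in part. Of 11 genes of blood and high endothelium, 3 fell (against 2.06% of all genes tested), 1 was wholly higher in UVTx at an unadjusted p under 0.05 without passing, and the median was -0.82, or -1.27 without UVTx 7. *Clec14a* (ENSMUSG00000045930, chromosome 12, 58264720 to 58269290), an endothelial lectin-like gene, fell from 1.06, 1.44 and 1.41 CPM to 0.39, 0.145 and 0.215 CPM (5.08-fold lower, log2 -2.34 ± 0.44, adjusted p = 0.0234). *Glycam1* (ENSMUSG00000022491, chromosome 15, 103562759 to 103565081), the mucin of high endothelial venules that L-selectin binds, fell from 4.62, 7.31 and 7.83 CPM to 3.3, 2.62 and 1.87 CPM (log2 -1.34 ± 0.26, adjusted p = 0.0254). *Pecam1*, the list's most abundant gene, is also made by leukocytes and fell from 276, 265 and 310.5 CPM to 213, 190.3 and 228 CPM (log2 -0.43 ± 0.09, adjusted p = 0.0313). The vascular cadherin gene *Cdh5*, by contrast, had 4.89 to 6.39 CPM in NoTx and 5.00 to 6.04 CPM in UVTx. Of 8 lymphatic endothelial genes edgeR called none, 2 were higher and 2 lower at an unadjusted p under 0.05 (against 26.3% of all genes tested), DESeq2 called 1 higher and 1 lower, and the median was -0.72, or -0.44 without UVTx 8. On the WT libraries alone edgeR also called 1 higher and 1 lower.

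Most of these stromal and vascular calls need nearly every library in edgeR, but not in DESeq2. The latter kept all 3 blood vessel calls and the *Serpina1b* call each time, and 1 or 2 of the fibroblastic calls. Of the 3 blood vessel calls edgeR kept 2 without NoTx 1, 1 without NoTx 2 and 2 without UVTx 7, of the 2 fibroblastic calls and the *Serpina1b* call it kept 1 each without UVTx 7, and none of the 6 passed without NoTx 3, UVTx 8 or UVTx 9. Of the 12 genes of largest decrease, edgeR kept 6 without NoTx 1, 3 without NoTx 2, 1 without NoTx 3, 5 without UVTx 7, none without UVTx 8 and 1 without UVTx 9, and DESeq2 kept 9 to 12.

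Red cell genes had the lowest median of the lists in the fit on 12 libraries, where the adipocyte median was -1.56. Without NoTx 1, NoTx 2 or UVTx 7, and in edgeR on the WT libraries alone, the adipocyte median was the lower of these. All 7 erythroid genes tested had a log2 fold change of -2.73 or lower, 6 were wholly lower in UVTx (against 17.3% of all genes tested), 4 passed (against 2.06%), and the median was -3.00, or -3.83 over 8 tested genes without UVTx 9 and -2.57 without NoTx 3. The beta-globin gene *Hbb-bs* (ENSMUSG00000052305, chromosome 7, 103826534 to 103828096) fell from 52.8, 52.5 and 100.5 CPM to 5.53, 4.54 and 15.6 CPM (7.98-fold lower, log2 -3.00 ± 0.70, adjusted p = 0.0464), and the alpha-globin gene *Hba-a2* from 43.7, 37.8 and 86.9 CPM to 5.11, 4.0 and 11.7 CPM (log2 -3.01 ± 0.67, adjusted p = 0.0425). Each has a near copy in the list, so the split between copies is uncertain. *Alas2* (ENSMUSG00000025270, chromosome X, 150547375 to 150570638), the haem synthesis enzyme made in red cell precursors, fell from 2.08, 2.2 and 4.39 CPM to 0.21, 0.40 and 0.674 CPM (log2 -2.74 ± 0.61, adjusted p = 0.0337). *Slc4a1*, the band 3 anion exchanger, had 134 reads over the NoTx libraries, most of them in NoTx 3, and 1 read over the UVTx libraries (adjusted p = 0.0455). NoTx 3 was highest and UVTx 9 the highest of UVTx for the globins. The summed level of the list was 134, 122 and 266 CPM in NoTx and 14.5, 10.8 and 39.5 CPM in UVTx, with *Hbb-bs* the most abundant gene. Of the 4 calls edgeR kept 1 without NoTx 2 and none without any other WT library, and DESeq2 kept 3 or 4. With no filter on low counts edgeR called 1 of the list. Without UVTx 9 the log2 fold change was -3.79 for *Hbb-bs* and -3.64 for *Hba-a2*.

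Fat, epidermis and muscle lie beside the inguinal node and could be taken with it, so lists of their markers are given. Of 10 adipocyte genes 3 were tested, and *Fabp4* (ENSMUSG00000062515, chromosome 3, 10204088 to 10208576), the fatty acid carrier of fat cells and some endothelium, fell from 1.09, 1.79 and 5.65 CPM to 0.27, 0.254 and 0.46 CPM (log2 -3.09 ± 0.67, adjusted p = 0.0319), or by 2.13 on the log2 scale without NoTx 3. Of the 3, only *Fabp4* was called, where 2.06% of all genes tested were lower. Its call held in edgeR without NoTx 1 and was lost without any other WT library, and DESeq2 kept it each time. The summed adipocyte level was 1.99, 2.63 and 10.6 CPM in NoTx and 0.781, 0.582 and 1.29 CPM in UVTx, so that NoTx 3 carried most of it. Of 10 epidermal genes 4 were tested and none passed in edgeR or DESeq2, with none at an unadjusted p under 0.05. All 4 were positive, with a median of 0.55, or 0.91 over 5 tested genes without UVTx 9. The whole list summed to 13.7, 10.9 and 9.55 CPM in NoTx and 13.8, 15.7 and 13.2 CPM in UVTx, with *Sfn* the most abundant. Of 8 skeletal muscle genes 3 were tested with the same outcome, summing to 3.34 to 4.66 CPM in every library, and *Myh1* had no count. None of 9 mammary gland genes had enough counts to test, and *Csn1s1*, *Csn1s2a*, *Csn3* and *Wap* had none at all. The part of blood and fat carried along with a node in the results above was not tested.

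Genes tied to UV-induced suppression gave a pair of calls. Of 15 tested, *Nt5e* and *Il1rl1* rose (against 2.92% higher among all genes tested), and the median was 0.17, or 0.08 without NoTx 2. *Il1rl1* (ENSMUSG00000026069, chromosome 1, 40429570 to 40465415), which encodes ST2, the receptor for the alarmin IL-33 on regulatory T cells, mast cells and innate lymphoid cells, rose from 4.22, 4.05 and 3.38 CPM to 7.36, 6.87 and 9.01 CPM (log2 1.00 ± 0.20, adjusted p = 0.0261). *Il33* itself, made by stroma, read 6.31, 7.68 and 4.85 CPM in NoTx and 3.36, 0.873 and 2.45 CPM in UVTx, wholly lower (adjusted p = 0.101). *Tnfsf11*, the RANK ligand gene, read 3.92, 3.36 and 3.04 CPM and 6.67, 5.31 and 5.33 CPM (adjusted p = 0.0768), and *Il10* stayed under 0.37 CPM in every library. *Il4*, *Ptgs2*, *Ptges*, *Ido1* and *Areg* were too low to test. The *Il1rl1* call held without NoTx 1 or UVTx 7 and was lost without NoTx 2, NoTx 3, UVTx 8 or UVTx 9, while DESeq2 kept it each time.

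Stress and timing genes moved singly. *Jun* (ENSMUSG00000052684, chromosome 4, 95049034 to 95052222), an immediate early transcription factor, rose from 8.63, 8.44 and 9.55 CPM to 16.6, 18.7 and 15 CPM (1.89-fold, log2 0.92 ± 0.14, adjusted p = 0.015). It was the only call in edgeR among 14 immediate early genes (against 2.92% higher among all genes tested). DESeq2 called 2, as did edgeR on the WT libraries alone. The list's median was 0.08, or -0.03 without NoTx 2 and 0.16 without NoTx 3. The *Jun* call was lost in edgeR without NoTx 3 (adjusted p = 0.0880) and without UVTx 8 (adjusted p = 0.0757), and DESeq2 kept it each time. Of 16 p53 target genes *Sesn2*, a stress-induced inhibitor of growth signalling, rose (log2 0.59 ± 0.16, adjusted p = 0.0497), 8 were wholly higher in UVTx (against 19.8% of all genes tested), and the median was 0.23. Of 15 clock genes *Per2* rose from 14, 10.8 and 12.2 CPM to 17, 18.8 and 17.2 CPM (log2 0.52 ± 0.13, adjusted p = 0.0451) and *Nr1d1*, a repressor within the clock, fell from 6.37, 5.55 and 6.76 CPM to 4.36, 3.6 and 2.91 CPM (log2 -0.78 ± 0.18, adjusted p = 0.0355). Among all genes tested, 2.92% were called higher and 2.06% lower. The *Sesn2* and *Per2* calls were lost in edgeR whichever WT library was left out, and *Nr1d1* held only without UVTx 7. *Sesn2* was also lost with RLE or upper-quartile scaling, with no filter, without robust estimation and without receptor and immunoglobulin genes.

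Antigen-presenting cells gave no call in edgeR on 12 libraries, and the counts at an unadjusted p under 0.05 that follow stand against 26.3% of all genes tested. On the WT libraries alone edgeR called 2 MHC class II genes higher. There it also called 1 gene lower in each of the migratory dendritic, plasmacytoid dendritic, monocyte and mast cell lists. MHC class II genes (9 tested, median -0.21, or -0.32 without NoTx 1, -0.07 without NoTx 3 and -0.10 without UVTx 8) had 2 at an unadjusted p under 0.05 and 1 call in DESeq2, all higher and so opposite to the median. Conventional dendritic cell genes (11, median 0.27, or 0.42 without NoTx 1 and 0.16 without UVTx 9) had none of either. Migratory dendritic and Langerhans cell genes (13, median -0.01, or 0.14 without UVTx 7 and -0.11 without UVTx 9) had 1 higher and 2 lower, with 1 higher and 1 lower call in DESeq2. Plasmacytoid dendritic cell genes (7, median 0.13, or -0.01 without NoTx 2) had 1 lower, opposite to the median, and 1 lower call in DESeq2. Macrophage genes of the node (17, median -0.22) had 3, all lower, and no call in DESeq2, and monocyte genes (8, median -0.38) had 3, all lower, and 1 lower call in DESeq2. Among neutrophil genes 7 of 14 were tested, with a median of -1.40, or -0.90 without NoTx 3, 2 lower at an unadjusted p under 0.05 and 1 lower call in DESeq2, *Ly6g* at 0, and a summed level of 6.07, 9.91 and 10.3 CPM in NoTx and 6.16, 3.67 and 3.98 CPM in UVTx. Mast cell, basophil and eosinophil genes (9, median -0.43, or -0.06 without NoTx 2 and -0.69 without NoTx 3) had 2 lower at an unadjusted p under 0.05 and no call in DESeq2.

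Receptor variable segments showed little that passed. Of 77 T cell receptor alpha segments none passed, and of 21 beta segments *Trbv5* fell (against 2.06% lower among all genes tested), from 20.6, 21.6 and 20.6 CPM to 14.9, 16.8 and 16.2 CPM (log2 -0.39 ± 0.10, adjusted p = 0.0414), a call that edgeR lost whichever WT library was left out. The medians of -0.43 and -0.33 lie on the side of the general T cell genes, and 10 segments of each family were lower at an unadjusted p under 0.05, where 26.3% of all genes tested had such a p on either side. Of 51 heavy chain and 81 kappa chain variable segments none passed, 1 and 0 had an unadjusted p under 0.05, and the medians were -0.20 and -0.21. Variable segments are similar to each other, so the counts of single segments are uncertain.

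Set beside the TG nodes, where UVB treatment was the same and the untreated mice also carried the transgene, the list medians differed in size, and the test of the difference singled out no gene in edgeR. The interaction of UVB with genotype gave 0 calls in edgeR, with 881 genes at an unadjusted p under 0.05 (5.45% of those tested) and a smallest adjusted p of 0.616. Leaving out NoTx 3 gave 1 call, *Arf5*. DESeq2 gave 8 (*Gm12940*, *Gm43802*, *Gm50387*, *Ifih1*, *Ifit1bl2*, *Lgals3bp*, *Phf11a* and *Safb*), between 2 and 49 without a WT library, the lowest without NoTx 3 and the highest without UVTx 9. For TG UVTx against TG NoTx edgeR called 0 genes, with 1507 at an unadjusted p under 0.05, and DESeq2 137. The TG UVTx libraries differ more from each other than the WT groups do, with correlations of 0.9696 to 0.9753, and on the leading component over all 12 libraries TG UVTx 12 lay at -19.54, among the NoTx libraries. Its fibroblastic stroma sum was 93.3 CPM, against 43.5 and 31.1 CPM in TG UVTx 10 and 11. The WT and TG comparisons have no library in common. Of the genes called in WT, 458 of the 472 that rose and 314 of the 333 that fell had the same sign in TG. Their median TG log2 fold changes were 0.27 and -0.19. The share of all tested genes with the same sign in both was not counted, so these counts have no background to be read against. None of these genes was called in TG by edgeR.

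For single genes, *Safb* gave a log2 fold change of 0.93 in WT and 0.16 in TG (adjusted interaction p in edgeR = 0.848) and *Jun* 0.92 and 0.07 (adjusted interaction p in edgeR = 0.848), the heat shock gene *Hsph1* 2.82 and 0.86 (adjusted interaction p in edgeR = 0.848). *Il7* gave -2.25 and -2.08 (adjusted interaction p in edgeR = 0.964), *Penk* 1.53 and 1.52, and *Glycam1* -1.34 and -1.33. By list, the median log2 fold change in WT and in TG was 1.29 and 0.37 for heat shock genes, 1.03 and 0.56 for mitosis, -1.35 and -0.80 for fibroblastic stroma and -3.00 and -1.48 for erythroid genes. The type I interferon-stimulated genes stood on opposite sides, at -0.97 and 1.17, while interferon gamma response genes were positive in both, at 0.38 and 0.61. For the type I genes the WT median was -0.48 without NoTx 2. Their mean log2(CPM + 0.5) was 4.79, 6.32 and 5.65 in WT NoTx and 4.03, 4.28 and 5.35 in WT UVTx. In TG it was 4.24, 4.19 and 4.05 in NoTx and 4.52, 6.18 and 5.07 in UVTx 10, 11 and 12. The untreated groups thus differed in level, and TG UVTx 11 was the highest TG library. No fit left out a TG library. No single gene named here passed the interaction test in edgeR with all libraries, and the list medians were not tested.

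**Figure D5:**
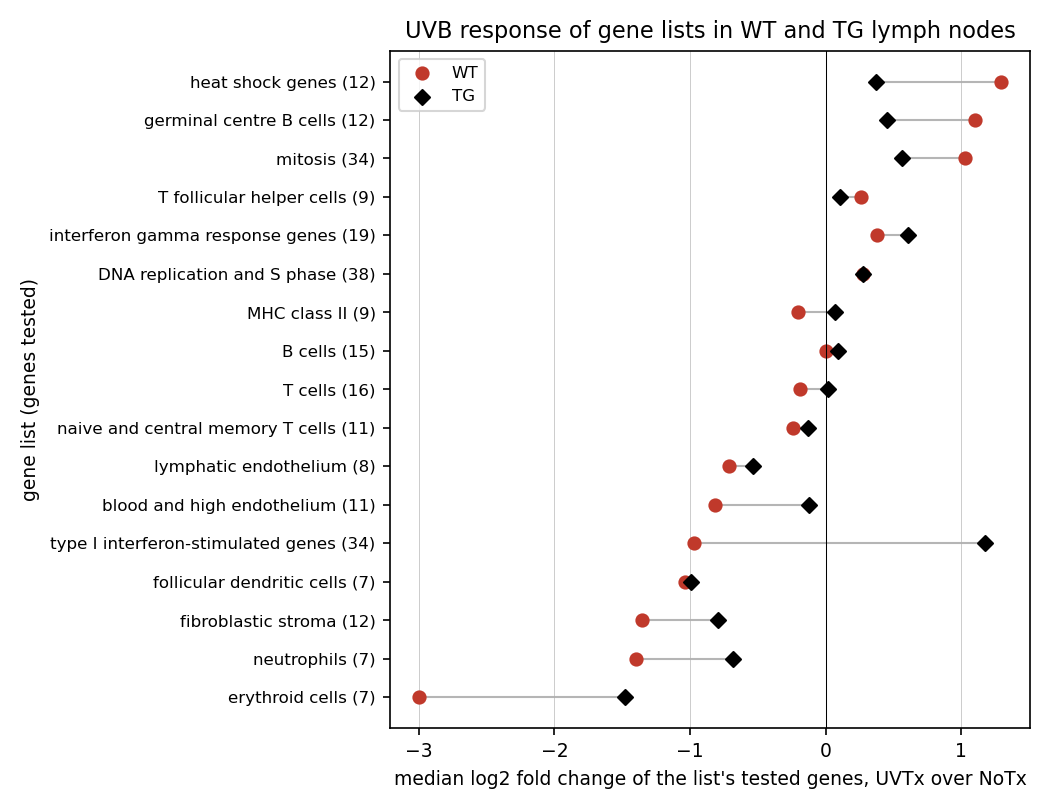
Points give the median log2 fold change, UVTx over NoTx, of each list's tested genes in WT (red circles) and TG (black diamonds) lymph nodes, joined by a line. The WT medians run from -3.00 for erythroid genes to 1.29 for heat shock genes, and WT and TG lie on opposite sides of 0 by the widest margin for type I interferon-stimulated genes. For that list every untreated WT library lay above every untreated TG library.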

How the data were processed

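The deposited lymph node table holds expected counts per gene, which the authors made from trimmed reads (cutadapt 4.8, FastQC 0.11.8, MultiQC 1.20) with STAR 2.7.8a and RSEM 1.3.3 on GRCm38, per their processing notes. The counts were rounded to whole numbers. Of 55491 genes, 16173 passed edgeR's filterByExpr. All 12 lymph node libraries (4 groups of 3) were fitted together in edgeR 4.0.16 (R 4.3.3) with TMM scaling and robust quasi-likelihood. Unless another fit is named, edgeR and DESeq2 stand for the fits on these 12 libraries. WT UVTx minus WT NoTx was tested 2-sided, with Benjamini-Hochberg adjustment over all tested genes and a threshold of 0.05. Standard errors derive from the F statistic, with 8 residual degrees of freedom. "Lost" and "held" refer to that threshold in refits that leave out 1 WT library. A gene to which DESeq2 gave no adjusted p counts as not called there. "Wholly higher" or "wholly lower" means that no WT library of a group overlaps the other group.

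Genes were named by rule: among called genes of at least 1 CPM without overlap, predicted genes and receptor segments aside, the 12 largest increases, the 12 largest decreases and the 10 smallest adjusted p, and from each of 42 lists the up to 4 members of smallest adjusted p and the most abundant member. Some genes it takes are left out of the text. *Dnajb1*, *Bag3*, *Hsp90aa1*, *Socs1*, *Birc5*, *Incenp*, *Foxp3*, *Cxcr5*, *Pdcd1*, *Cxcl12*, *Cdh5*, *Il10* and *Ighd*, and genes named only as untested or without counts, fall outside it and were chosen after their values were seen, as were those the text marks so. Members and lists were chosen with earlier results of these data known. Lists are described by counts and medians alone.

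Positions come from GENCODE M21 by Ensembl identifier (GRCm38, 16143 of 16173 tested genes matched). Alternatives used DESeq2 1.42.0, other scalings and filters, the WT libraries alone, other thresholds and leaving out each WT library. The steps were tested on simulated data. Libraries carry no molecular identifiers as far as the labels say, so the limit set by 3 counts covers counting error only. Figures were drawn with matplotlib 3.10.9 in Python 3.11.15.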

Additional observations from a re-analysis of the deposited data

How the results depend on the processing

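Of the called genes whose values the text gives, 57 to 72 had a value in each alternative, and none of these changed direction there, where the calls had no overlap between the groups to begin with. For WT UVTx against WT NoTx, the 805 calls became 752 with RLE size factors, 800 with upper-quartile scaling, 644 with no filter on low counts, 889 with at least 10 counts in every lymph node library, 813 without robust estimation and 809 without immunoglobulin and T cell receptor genes. DESeq2 called 2002, of which 770 were among the 805, and the 6 WT libraries alone gave 2431, of which 789 were. Thresholds of 0.01 and 0.1 on the adjusted p gave 1 call (*Safb*) and 2073, and glmTreat against a fold change of 1.5 gave 0. Chosen after seeing the data, DESeq2 on the WT libraries alone gave 2918. Leaving out 1 WT library gave 0 to 493 calls in edgeR, 580 to 1592 in DESeq2 and 870 to 2262 in edgeR on the WT libraries alone, the last pair also chosen after seeing the data. In DESeq2 the calls were 1592 without NoTx 1, 1486 without NoTx 2, 694 without NoTx 3, 1486 without UVTx 7, 580 without UVTx 8 and 1247 without UVTx 9, and on the WT libraries alone in edgeR they were 1827, 2262, 978, 2065, 870 and 1353 in the same order. The interaction gave 0 calls in edgeR under each alternative with all libraries and 0 to 1 without a WT library (1 without NoTx 3), 8 in DESeq2, and 2 to 49 in DESeq2 without a WT library (38, 4, 2, 16, 3 and 49 in the same order). Within lists, the number of calls in edgeR went from 8 to 2 for heat shock genes with no filter on low counts and to 4 on the WT libraries alone, from 4 to 1 for erythroid genes with no filter, and from 6 to 5 for mitosis genes with RLE or upper-quartile scaling. On the WT libraries alone it rose from 6 to 29 for mitosis, from 3 to 14 for S phase and from 1 to 4 for germinal centre genes. Other lists rose there too. Among them, general T cell and regulatory T cell genes each went from 2 to 5, p53 targets and follicular dendritic cell genes each from 1 to 3, and MHC class II genes from 0 to 2. The *Serpina1b* and *Per2* calls were lost with no filter. With at least 10 counts in every library, where fewer members are tested, the number went from 4 to 3 for erythroid genes, from 3 to 2 for blood and high endothelium and for T follicular helper cells, and from 2 to 1 for fibroblastic stroma. The cause was not tested.

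Upper-quartile scaling put 419 called genes higher and 381 lower, against 472 and 333 on the TMM scale, and moved the median log2 fold change of all genes to -0.03. A fit on the WT libraries alone gives no interaction. *Xist* as a covariate was not run, because every WT library carried *Ddx3y* and little *Xist*. No paired analysis was possible because the groups compared share no sample number. Each group has 3 libraries, and changes in low genes of rare cells may not have been detectable at this depth.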

Other observations

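Outside the gene groups described above, the rule for the largest increases also took several genes of low level. *Shisa7* (ENSMUSG00000053550, chromosome 7, 4825552 to 4844696), which encodes an auxiliary subunit of neurotransmitter receptors, had 0.181, 0 and 0.0921 CPM in NoTx and 0.30, 1.78 and 1.01 CPM in UVTx (log2 3.42 ± 0.81, adjusted p = 0.0365). *Efnb3*, an ephrin gene as *Efnb1* is, rose from 0.483, 0.314 and 0.184 CPM to 0.901, 2.15 and 1.44 CPM (log2 2.17 ± 0.50, adjusted p = 0.0343). *Ager*, the receptor for advanced glycation end products, rose from 0.724, 0.909 and 0.461 CPM to 2.7, 3.67 and 2.33 CPM (log2 2.05 ± 0.45, adjusted p = 0.0318), and the integrin subunit gene *Itga10* from 0.392, 0.565 and 0.184 CPM to 1.29, 1.93 and 1.62 CPM (log2 2.07 ± 0.54, adjusted p = 0.0451). *Slc5a3* (ENSMUSG00000089774, chromosome 16, 92058322 to 92087473), the myo-inositol transporter that cells raise under osmotic stress, went from 7.97, 5.83 and 6.05 CPM to 14.5, 43.5 and 19 CPM (log2 1.95 ± 0.37, adjusted p = 0.0278), with UVTx 8 highest as for the heat shock genes, and its log2 fold change was 1.34 without UVTx 8. *Lmo7* (log2 2.04), *Ctrl* (log2 2.08) and *Erdr1* (log2 2.30), which has repeated copies near the end of the sex chromosomes that make its count uncertain, rose as well. Of the 12 largest increases, *Hspa1a*, *Hspa1b*, *Hsph1* and *Il21* among them, edgeR kept 7 calls without UVTx 7 and none without any other WT library, and DESeq2 kept 6 to 11. The log2 fold change of *Shisa7* was 4.33 without NoTx 1 and 2.79 without UVTx 8, and that of *Erdr1* was 2.93 without NoTx 2.

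Metabolic genes gave no call in edgeR. Of 15 cholesterol synthesis genes none had an unadjusted p under 0.05 and DESeq2 called none, with a median log2 fold change of -0.06, or 0.10 without NoTx 3 and -0.14 without UVTx 7. Of 14 glycolysis genes 2 were lower at an unadjusted p under 0.05 (against 26.3% of all genes tested) and DESeq2 called none, with a median of -0.12. Counts of mitochondrial genes made up 6.94%, 6.29% and 8.86% of the NoTx libraries and 6.93%, 6.44% and 7.58% of the UVTx libraries, which overlap.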
